A study of Homo sapiens with 12 samples.

Results

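The 10 genes described here are the core of the switch that takes a cell from G2 into and through mitosis: CDC25A, CDC25B, CDC25C, WEE1, PKMYT1, CDC20, UBE2C, FBXO5, FOXM1 and MYBL2. They were taken by name from the 34643 gene symbols of the deposited table, and all 10 were present and passed the filter on low counts, as did 15419 symbols in all. RNA-seq was performed on LNCaP cells, a line of human prostate cancer cells that responds to androgen, in 12 libraries that form 4 groups of 3. The cells carried a lentiviral short hairpin RNA expressed from the U6 promoter, either against TMEFF2, a transmembrane protein of prostate and brain (shTMEFF2), or a scrambled control (shScramble), and were selected with puromycin and collected 17 days after transduction according to the design text. All cells were first grown for 24 h in hormone-stripped serum and then received 10 nM dihydrotestosterone (DHT+) or the ethanol vehicle (DHT-) for 24 h. The groups are shScramble DHT-, shScramble DHT+, shTMEFF2 DHT- and shTMEFF2 DHT+. The repeats were separate treatments of cells from 2 transductions, and the labels do not say which library came from which, so the p-values below measure the spread among these libraries. The study asked how loss of TMEFF2 alters the transcriptional response to androgen.

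Entry into mitosis depends on the kinase CDK1 bound to cyclin B. WEE1 and PKMYT1 (Myt1) hold CDK1 inactive by phosphorylating it near its ATP-binding site, and the CDC25 phosphatases remove those phosphates, while active CDK1 in turn activates CDC25 and inhibits both kinases, which makes the transition abrupt. Exit from mitosis needs the anaphase-promoting complex (APC/C), a ubiquitin ligase that works with its coactivator CDC20 and the ubiquitin-conjugating enzyme UBE2C and is held back in interphase by FBXO5 (EMI1). The transcription factors MYBL2 (B-Myb) and FOXM1 act with the MuvB complex to turn on the late cell cycle genes, among them several genes of the switch itself, so the RNAs of many of these genes are highest late in the cell cycle. In a bulk library a lower share of cells in these phases and less RNA in each such cell cannot be told apart.

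Textbook promoter elements of such genes are the CHR (cell cycle genes homology region, TTTGAA) bound by MuvB, and the CCAAT box, while E2F sites drive transcription at the transition into S phase. RefSeq promoter windows (250 bases before to 50 after a start, GRCh38.p14) were at hand for 6 of the 10 genes, CDC25A, CDC25B, CDC25C, CDC20, FBXO5 and MYBL2. Both strands were searched for TTTGAA, for CCAAT and for the E2F forms TTTGGCGC and TTTCCCGC, letters that were kept after other spellings of the same elements had also been tried. Of 35116 windows of this length in the genome, 15.2% held TTTGAA, 34.6% held CCAAT, 0.652% held TTTGGCGC and 1.63% held TTTCCCGC, and no one of these motifs contains another. The sequences below are those of the 4 genes that represent the classes of member in which a match lay close before a start, namely a phosphatase that rose with DHT in both lines (CDC25A), the APC/C coactivator (CDC20), the mitotic phosphatase CDC25C and the APC/C inhibitor FBXO5. Capitals mark the matched letters on either strand. The CDC25A stretch (chr3:48188418-48188527, minus strand) holds 2 inverted CCAAT boxes and 1 TTTGGCGC. The CDC20 stretch (chr1:43358871-43358980, plus strand) holds a CHR between 2 CCAAT boxes. The CDC25C stretch (chr5:138331817-138331846, minus strand) begins its CHR 30 bases before a start at position 138331804, and the FBXO5 stretch (chr6:152983064-152983093, minus strand) has a CHR on the opposite strand, 40 bases before a start at position 152983041. Both are later starts of their genes. The 110 bases before the first start of CDC25C (138338355) and of FBXO5 (152983579) held none of the letters searched.
CDC25A: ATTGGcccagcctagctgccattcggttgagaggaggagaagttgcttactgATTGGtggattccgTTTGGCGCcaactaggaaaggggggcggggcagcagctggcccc
CDC20: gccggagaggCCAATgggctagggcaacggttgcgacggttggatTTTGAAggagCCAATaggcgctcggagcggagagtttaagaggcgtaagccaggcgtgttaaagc
CDC25C: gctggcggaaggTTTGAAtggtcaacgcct
FBXO5: ttaggcaccaaaTTCAAAgattttaaaagt
The 6 genes have 13 windows, 1 to 4 each, some of which share sequence. Of these, 4 windows (of CDC20, CDC25C and FBXO5) held the CHR letters, 7 (of 5 genes) held CCAAT on either strand, and 1, that of CDC25A, held TTTGGCGC. The MYBL2 window held none of the letters searched. A match is a description of the sequence and was not tested as a site.

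The deposited values are estimated counts, summed here over the 2 columns of each library, and totalled 19450866 to 22612046 per library (median 21194622). Levels are given as CPM, counts scaled to a common library total, after TMM scaling, whose factors ran from 0.955 to 1.037, and each of the 10 genes had between 194 and 3390 counts in every library. TMEFF2, the targeted gene, averaged 85.0 ± 15.9 CPM (SD, n = 3) in shScramble DHT- and 63.2 ± 21.7 in shTMEFF2 DHT-, and 153 ± 31.4 and 116 ± 26.0 CPM with DHT. The groups of the lines overlapped with and without DHT, and the line difference in TMEFF2 did not pass the test in either (edgeR adjusted p = 0.50 without and 0.30 with DHT), so the targeted RNA does not by itself separate libraries by their shRNA label. The paper reports silencing of TMEFF2 in LNCaP cells by Western blot for some of its shRNAs. Which of them the sequenced cells carried is not stated in the labels. All 9 prostate luminal markers were above 1 CPM in every library, with a summed level of 6833 to 7095 CPM in shScramble DHT-, 14351 to 16002 in shScramble DHT+, 4360 to 4950 in shTMEFF2 DHT- and 5338 to 6823 in shTMEFF2 DHT+. The 4 basal markers summed to at most 1.92 CPM, with KRT5 at 0 in all libraries, the 5 fibroblast markers to 12.7 to 34.5 CPM and the 4 immune markers to 8.12 to 12.7 CPM. The part of the luminal level in the results below was not tested.

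A gene is called changed where its fold change was 1.5 or more and its p from the edgeR quasi-likelihood test, adjusted over the 15419 genes, did not exceed 0.05. With DHT, 2 of the 10 genes rose in shScramble cells, CDC25A and PKMYT1, against 5.45% of all tested genes called higher, and none of the 10 fell, against 6.45% called lower. In shTMEFF2 cells 8 of the 10 rose with DHT, CDC25A, CDC25C, PKMYT1, CDC20, UBE2C, FBXO5, FOXM1 and MYBL2, against 3.28% of all genes, and none fell, against 1.60%. Without DHT none of the 10 passed both limits between the lines, against 0.298% higher and 0.272% lower in shTMEFF2, although WEE1 passed that on p (edgeR adjusted p = 0.0346) and missed that on size. WEE1 was also the 1 gene with an unadjusted p under 0.05, and the share of all genes under it is not given. DESeq2 and limma-voom called none there either. With DHT only MYBL2 was called higher in shTMEFF2 than in shScramble, against 3.03% of all genes, and none lower, against 3.74%. The count of 8 fell to 5 without shTMEFF2 DHT- replicate 1, shTMEFF2 DHT- replicate 2 or shTMEFF2 DHT+ replicate 3 and was 7 to 9 without any other library, and CDC25A, PKMYT1, UBE2C, FBXO5 and MYBL2 kept the call in every alternative run. The count of 1 between the lines with DHT was 0 without shTMEFF2 DHT+ replicate 3 and 6 without shTMEFF2 DHT+ replicate 1. It was 3 without shScramble DHT- replicate 3, shScramble DHT+ replicate 2 or shTMEFF2 DHT- replicate 3, and 2 without shScramble DHT+ replicate 3 or shTMEFF2 DHT- replicate 1. These comparisons share libraries with each other, so their counts are not independent.

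**Figure D1:**
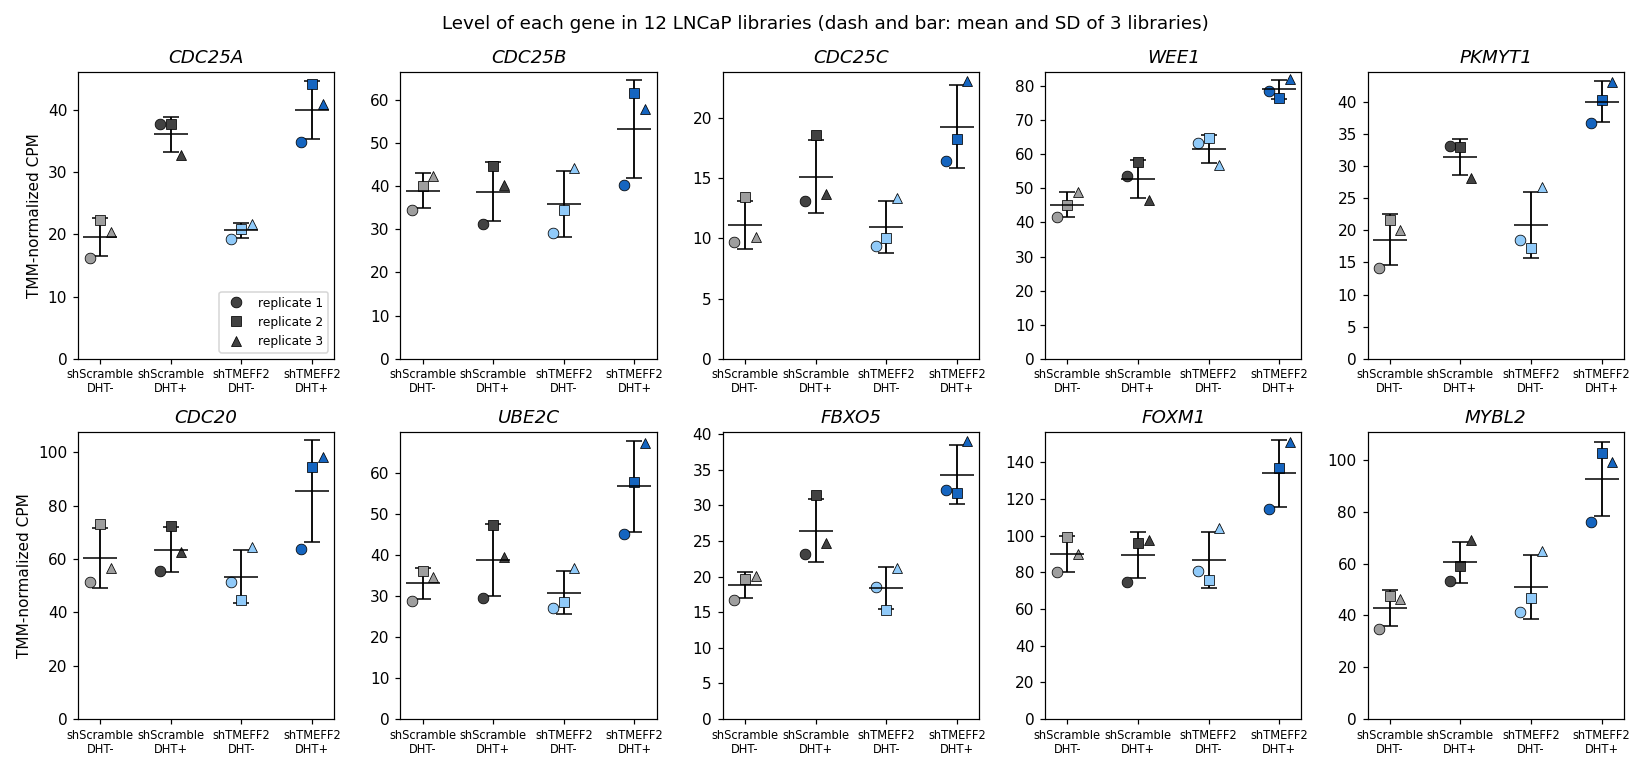
TMM-normalized CPM (vertical axes, each starting at 0) of the 10 genes in each of the 12 LNCaP libraries, with a marker shape per replicate number and the mean and SD of 3 libraries as dash and bar. For 9 of the 10 genes the shTMEFF2 DHT- and shScramble DHT- libraries overlapped, and WEE1, at 61.7 against 45.2 CPM, was the gene whose DHT- groups did not overlap. Of all tested genes, 18.5% did not overlap in that comparison.

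Among the CDC25 phosphatases, CDC25A, which acts on CDK2 as well as CDK1 and is degraded on DNA damage, rose with DHT in both lines. Its level was 16.2, 22.2 and 20.4 CPM in the shScramble DHT- libraries and 37.7, 37.7 and 32.8 CPM in shScramble DHT+. In shTMEFF2 it was 19.3, 20.9 and 21.7 CPM without DHT and 34.9, 44.2 and 40.9 CPM with DHT. Every DHT+ library of either line lay above every DHT- library of either line, whereas the lines overlapped under each condition. The fold change was 1.84 in shScramble (log2 0.88, SE 0.12, edgeR adjusted p = 0.000182) and 1.94 in shTMEFF2 (log2 0.95, SE 0.12, edgeR adjusted p = 0.000759). The response of CDC25A differed by 0.07 between the lines on the log2 scale, with a 95% interval from -0.30 to 0.44.

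CDC25B and CDC25C, the phosphatases that start and sustain CDK1 activation at the G2/M boundary, were not called with DHT in shScramble. CDC25B was at 34.4, 40.0 and 42.3 CPM in shScramble DHT- and at 31.2, 44.6 and 40.2 CPM in shScramble DHT+. It was at 29.2, 34.4 and 44.2 CPM in shTMEFF2 DHT- and at 40.2, 61.5 and 58.0 CPM in shTMEFF2 DHT+. The shScramble groups were interleaved, and in shTMEFF2 the DHT+ replicate 1 lay below the highest DHT- library. In shTMEFF2 the DHT fold change of CDC25B was 1.48 (log2 0.57, SE 0.18, edgeR adjusted p = 0.0610), and it did not pass the test, while in shScramble it was 0.993 (log2 -0.01, SE 0.18). Without shTMEFF2 DHT+ replicate 1 or shTMEFF2 DHT- replicate 3 the shTMEFF2 change passed the test, with values between 0.44 and 0.75 over all libraries left out in turn.

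CDC25C was the least counted of the 10 genes. Its level was 9.73, 13.4 and 10.1 CPM in shScramble DHT-, 13.1, 18.6 and 13.7 CPM in shScramble DHT+, 9.33, 10.0 and 13.4 CPM in shTMEFF2 DHT- and 16.4, 18.2 and 23.1 CPM in shTMEFF2 DHT+. The DHT groups separated in shTMEFF2 and overlapped in shScramble, where replicate 2 was high in both conditions. CDC25C rose 1.76-fold with DHT in shTMEFF2 (log2 0.82, SE 0.19, edgeR adjusted p = 0.0152). In shScramble its fold change was 1.36 (log2 0.45, SE 0.19, edgeR adjusted p = 0.107). The shTMEFF2 call was lost without shTMEFF2 DHT- replicate 1, shTMEFF2 DHT- replicate 2 or shTMEFF2 DHT+ replicate 3, with values from 0.68 to 1.00, and with replicates 2 and 3 alone.

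**Figure D2:**
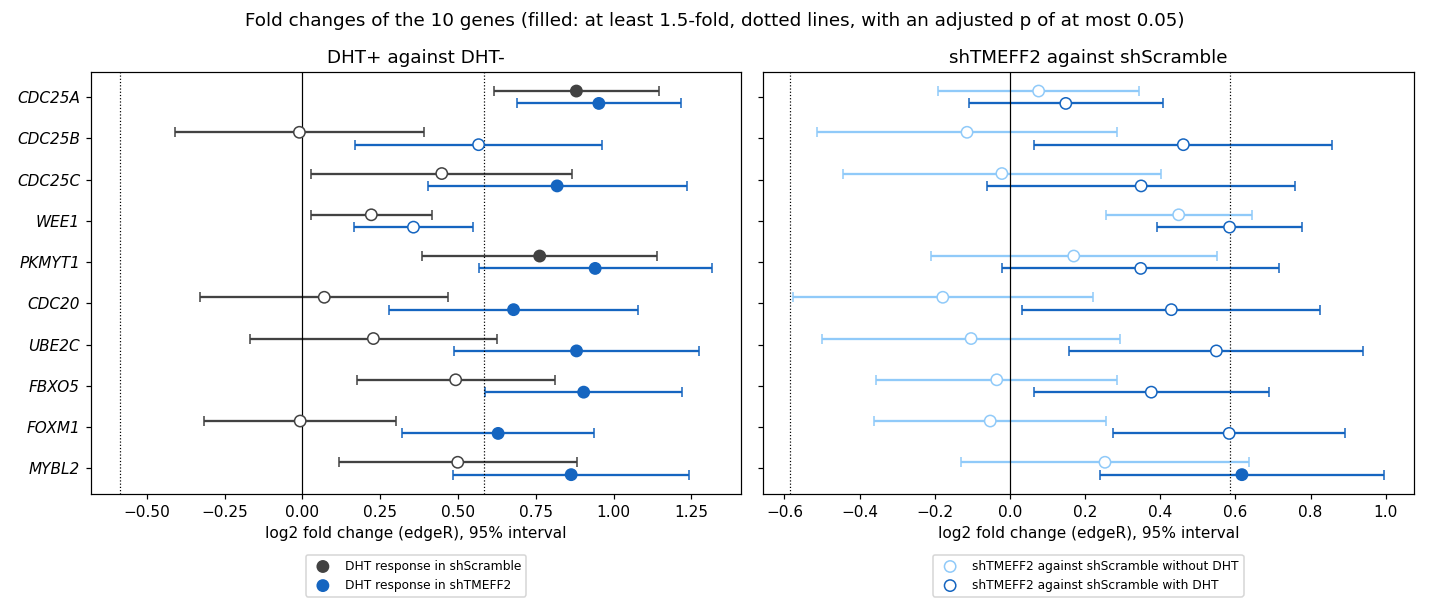
Log2 fold changes (horizontal axes) of the 10 genes with 95% intervals from edgeR, for DHT+ against DHT- in each line on the left and for shTMEFF2 against shScramble under each condition on the right. Filled points passed both limits (dotted lines, 1.5-fold), which 2 genes did for DHT in shScramble, 8 for DHT in shTMEFF2, none between the lines without DHT and MYBL2 alone between the lines with DHT.

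WEE1, the nuclear kinase that phosphorylates CDK1 on tyrosine, was the only member with every shTMEFF2 library above every shScramble library under both conditions. Over all tested genes, the lines did not overlap, in either direction, for 18.5% without DHT and 32.5% with DHT. The means of CDC25A, PKMYT1 and MYBL2 were also higher in shTMEFF2 under both conditions, but their lines overlapped without DHT. The level of WEE1 was 41.6, 45.0 and 49.0 CPM in shScramble DHT- and 63.4, 64.7 and 57.0 CPM in shTMEFF2 DHT-. With DHT it was 53.7, 57.7 and 46.6 CPM in shScramble and 78.4, 76.4 and 82.1 CPM in shTMEFF2. The lines did not overlap under either condition, and the shTMEFF2 DHT- libraries overlapped with those of shScramble DHT+. WEE1 was 1.37-fold higher in shTMEFF2 without DHT (log2 0.45, SE 0.09, edgeR adjusted p = 0.0346), the only member past the adjusted p limit there, although under the 1.5-fold limit. With DHT the difference was 0.58 on the log2 scale (SE 0.09, edgeR adjusted p = 0.000721), just short of the 1.5-fold limit of 0.585, and in 10 of 11 other settings it passed that limit. The DHT response of WEE1 was 0.22 (SE 0.09, edgeR adjusted p = 0.0868) in shScramble and 0.36 (SE 0.09, edgeR adjusted p = 0.0197) in shTMEFF2, under 1.5-fold in both. The counts cannot separate WEE1 from its 2 processed copies, WEE1P1 and WEE1P2, if reads were shared among them.

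PKMYT1, the membrane-bound kinase of the same family, which phosphorylates CDK1 on threonine as well as tyrosine, rose with DHT in both lines. It was at 14.1, 21.6 and 20.0 CPM in shScramble DHT- and at 33.2, 33.0 and 28.2 CPM in shScramble DHT+. It was at 18.6, 17.3 and 26.7 CPM in shTMEFF2 DHT- and at 36.7, 40.3 and 43.1 CPM in shTMEFF2 DHT+. All DHT+ libraries lay above all DHT- libraries, and the shTMEFF2 DHT+ libraries above the shScramble DHT+ libraries. PKMYT1 rose 1.70-fold in shScramble (log2 0.76, SE 0.17, edgeR adjusted p = 0.00611) and 1.92-fold in shTMEFF2 (log2 0.94, SE 0.17, edgeR adjusted p = 0.00438). The lines with DHT differed by 0.35 (SE 0.17, edgeR adjusted p = 0.197), and with replicates 2 and 3 alone the shScramble change was 0.55 and was not called.

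The balance of opposing genes can be followed as a ratio of counts, in which only the change between groups can be read because transcript length is not divided out. The log2 ratio of CDC25C to WEE1 averaged -2.04 ± 0.27 (SD, n = 3) in shScramble DHT-, -1.81 ± 0.21 in shScramble DHT+, -2.51 ± 0.37 in shTMEFF2 DHT- and -2.05 ± 0.21 in shTMEFF2 DHT+. It was thus lowest in shTMEFF2 DHT-, the group in which CDC25C was as in the control and WEE1 was higher, although its replicate 3, at -2.09, lay within the shScramble DHT- range. The log2 ratio of PKMYT1 to WEE1 was -1.30 ± 0.25 in shScramble DHT-, -0.74 ± 0.06 in shScramble DHT+, -1.59 ± 0.43 in shTMEFF2 DHT- and -0.98 ± 0.10 in shTMEFF2 DHT+. With DHT the mean ratio thus moved toward PKMYT1 in both lines. In shTMEFF2 the groups met, with DHT- replicate 3 and DHT+ replicate 1 both at -1.095. No test was made of these ratios.

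Of the 3 genes of the APC/C arm, CDC20 and UBE2C were near their DHT- levels in shScramble DHT+ and rose in shTMEFF2. CDC20, the coactivator that brings securin and cyclin B to the APC/C, was at 51.5, 73.1 and 56.8 CPM in shScramble DHT- and at 55.5, 72.3 and 62.6 CPM in shScramble DHT+. It was at 51.3, 44.6 and 64.3 CPM in shTMEFF2 DHT- and at 63.6, 94.6 and 98.2 CPM in shTMEFF2 DHT+. Replicate 1 of shTMEFF2 DHT+ lay within the range of every other group, whereas the other libraries of that group were the highest of all 12. CDC20 rose 1.60-fold in shTMEFF2 (log2 0.68, SE 0.18, edgeR adjusted p = 0.0297) against 1.05-fold in shScramble (log2 0.07, SE 0.18, edgeR adjusted p = 0.817). The shTMEFF2 call was lost in 4 of the 12 fits without a library, those without shTMEFF2 DHT- replicate 1 or 2 or shTMEFF2 DHT+ replicate 2 or 3 (0.56 to 0.85), and with the second column of each library alone.

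UBE2C, which starts ubiquitin chains on APC/C substrates, was at 28.9, 36.0 and 34.6 CPM in shScramble DHT- and at 29.6, 47.3 and 39.5 CPM in shScramble DHT+. It was at 27.1, 28.6 and 36.9 CPM in shTMEFF2 DHT- and at 45.2, 57.7 and 67.4 CPM in shTMEFF2 DHT+. The shTMEFF2 groups separated and the shScramble groups overlapped. UBE2C rose 1.84-fold with DHT in shTMEFF2 (log2 0.88, SE 0.18, edgeR adjusted p = 0.00802), a call kept in every alternative run, and its shScramble change was 1.17-fold (log2 0.23, SE 0.18, edgeR adjusted p = 0.391). UBE2C has 5 processed copies in the annotation.

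FBXO5, the APC/C inhibitor, had DHT groups that did not overlap in either line, and its change passed both limits in shTMEFF2. It was at 16.7, 19.6 and 20.1 CPM in shScramble DHT- and at 23.2, 31.4 and 24.8 CPM in shScramble DHT+, with a change of 1.41-fold (log2 0.49, SE 0.15, edgeR adjusted p = 0.0253) that was under the 1.5-fold limit. In shTMEFF2 it was at 18.5, 15.4 and 21.2 CPM without and 32.2, 31.7 and 39.1 CPM with DHT, and it rose 1.87-fold (log2 0.90, SE 0.15, edgeR adjusted p = 0.00228). The 3 shTMEFF2 DHT+ libraries were the highest of the 12, yet the difference between the lines with DHT was 0.38 (SE 0.14, edgeR adjusted p = 0.0982) and did not pass the test.

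FOXM1 and MYBL2, the transcription factors of the switch, had, after WEE1, the smallest p-values among the 10 genes for the difference between the lines with DHT. FOXM1, the forkhead factor that binds MuvB in G2, was at 80.2, 99.4 and 90.2 CPM in shScramble DHT- and at 74.9, 96.2 and 97.3 CPM in shScramble DHT+, a fold change of 0.995 (log2 -0.01, SE 0.14). In shTMEFF2 it was at 80.4, 75.6 and 104 CPM without DHT and at 115, 137 and 151 CPM with DHT. The 3 shTMEFF2 DHT+ libraries were above all 9 others, which were interleaved. FOXM1 rose 1.55-fold with DHT in shTMEFF2 (log2 0.63, SE 0.14, edgeR adjusted p = 0.0126), a call lost without shTMEFF2 DHT- replicate 1, shTMEFF2 DHT- replicate 2 or shTMEFF2 DHT+ replicate 3 (0.54 to 0.79) or with the second column of each library alone. With DHT, FOXM1 was higher in shTMEFF2 by 0.58 (SE 0.14, edgeR adjusted p = 0.0145), short of the fold limit, which 7 of 11 other settings passed.

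MYBL2, the MuvB partner that comes on in S phase, was at 34.7, 47.4 and 46.3 CPM in shScramble DHT- and at 53.3, 59.0 and 69.0 CPM in shScramble DHT+. It was at 41.2, 46.9 and 64.7 CPM in shTMEFF2 DHT- and at 76.2, 103 and 99.3 CPM in shTMEFF2 DHT+. The DHT groups did not overlap in either line, and shTMEFF2 DHT+ lay above every other library. MYBL2 rose 1.82-fold in shTMEFF2 (log2 0.86, SE 0.17, edgeR adjusted p = 0.00738), whereas in shScramble the change was 1.41-fold (log2 0.50, SE 0.18, edgeR adjusted p = 0.0534). It was 1.53-fold higher in shTMEFF2 than in shScramble with DHT (log2 0.62, SE 0.17, edgeR adjusted p = 0.0301), the call that was lost without shScramble DHT+ replicate 1 or 2 or shTMEFF2 DHT+ replicate 2 or 3 (0.54 to 0.74) or with the first column of each library alone. The log2 ratio of MYBL2 to FOXM1 counts moved with DHT from -1.08 ± 0.12 (SD, n = 3) to -0.56 ± 0.12 in shScramble and from -0.78 ± 0.16 to -0.54 ± 0.11 in shTMEFF2.

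Whether the DHT response itself differed between the lines was tested with the interaction term. None of the 10 genes passed, against 1.65% of all genes called higher and 3.29% called lower in this comparison. The share of all genes with an unadjusted p under 0.05 is not given, and 4 of the 10 had one in edgeR. These were FOXM1 with a difference of 0.64 (95% interval 0.20 to 1.07, edgeR adjusted p = 0.10), UBE2C with 0.65 (0.10 to 1.21, edgeR adjusted p = 0.197), CDC20 with 0.61 (0.04 to 1.17, edgeR adjusted p = 0.241) and CDC25B with 0.58 (0.01 to 1.14, edgeR adjusted p = 0.271). FOXM1 alone was called by DESeq2, by edgeR with no filter and by edgeR without shTMEFF2 DHT- replicate 3, and limma-voom called none. For the remaining 6 the differences were 0.41 (FBXO5), 0.37 (CDC25C), 0.36 (MYBL2), 0.18 (PKMYT1), 0.14 (WEE1) and 0.07 (CDC25A), with intervals that all include 0. The larger count of calls in shTMEFF2 is thus not shown, by the test used, to be a larger response of a given gene. For FOXM1, CDC25B and UBE2C that depends on the fit. A fit with the replicate number as a block called the difference for these genes. All 10 differences were above 0, with a median of 0.39 against 0.01 over all tested genes, and they are not independent because the genes share libraries.

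Side by side, the median log2 fold change of the 10 genes with DHT was 0.34 in shScramble and 0.84 in shTMEFF2, against -0.01 and -0.02 over all tested genes. Between the lines it was -0.03 without and 0.45 with DHT, against medians of 0.00 and 0.00. The groups did not overlap for 4 of the 10 genes with DHT in shScramble (41.8% of all genes), for 8 in shTMEFF2 (31.3%), for 1 between the lines without DHT (18.5%) and for 5 with DHT (32.5%). The count of 4 is near the share of all genes in that comparison.

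Within a group the 10 genes tended to be high or low together in the same library. Replicate 1 had the lowest median deviation from its group mean in 4 of 4 groups, between -0.21 and -0.12 on the log2 scale, and in shTMEFF2 DHT+ all 10 genes were below the group mean in replicate 1 and above it in replicate 3. Replicate 3 of shTMEFF2 DHT- stood highest, with a median of 0.28 and 9 of 10 genes above the mean. WEE1 was the exception in that library, at -0.11. Over the 12 libraries the median Pearson correlation among the 36 pairs without WEE1 was 0.87, and 0.72 for deviations within groups, against 0.60 and 0.10 for the 9 pairs with WEE1. The points share libraries, scaling and groups, so these values are descriptions. With replicates 2 and 3 alone, a choice made after the data were seen, 1 gene was called with DHT in shScramble, against 2.

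**Figure D3:**
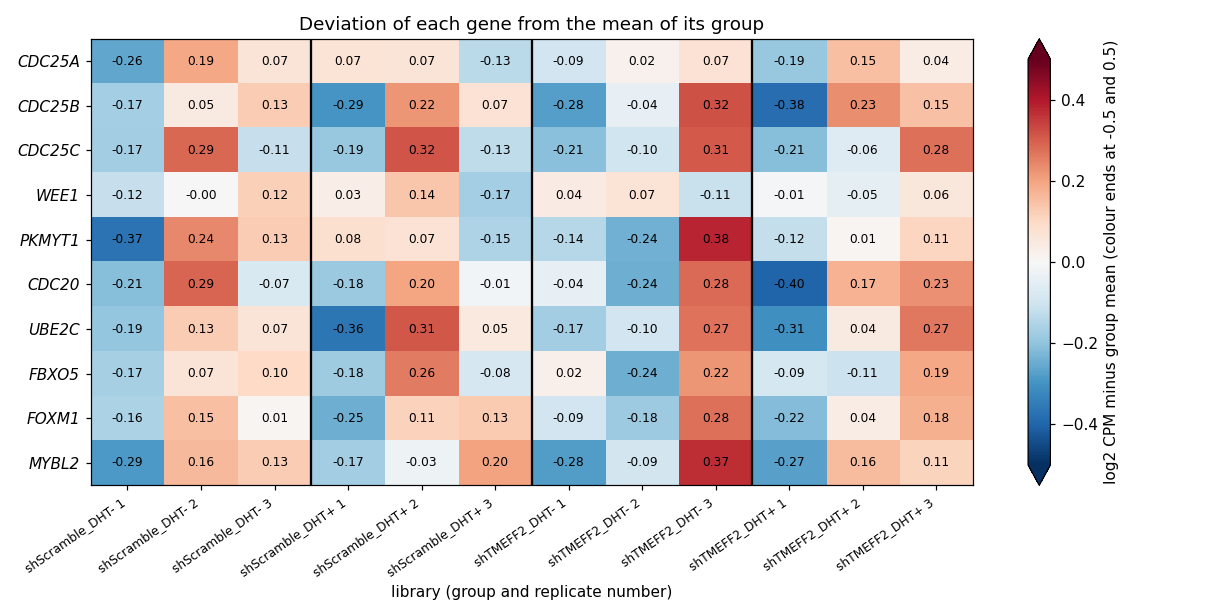
Deviation of log2 CPM from the mean of its group (colour and printed value) for the 10 genes in rows and the 12 libraries in columns. Replicate 1 of shTMEFF2 DHT+ is below its group mean for all 10 genes, replicate 3 of shTMEFF2 DHT- is above it for 9, and WEE1 is the gene that departs from the others there.

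The other genes of mitotic entry and exit were followed in 7 lists of 83 genes, all of which passed the filter. With DHT, 3 of the 83 rose in shScramble (TTK, LIN52 and CLSPN), against 5.45% of all genes, and PPP2R2A fell by 0.82 on the log2 scale (SE 0.11, edgeR adjusted p = 0.000165), against 6.45%. The share that rose was thus no higher than that of all genes. On p alone, 15 of the 83 passed in the upward direction, and the share of all genes that did so is not given. The TTK call was lost in 5 of the 12 fits without a library, those without shScramble DHT- replicate 1 or 3, shScramble DHT+ replicate 1 or 2 or shTMEFF2 DHT+ replicate 2 (0.52 to 0.84), and the LIN52 call with the second column of each library alone. In shTMEFF2, 32 of the 83 rose and none fell, against 3.28% and 1.60% of all genes. The medians were 0.14 and 0.33. None of the 83 differed between the lines without DHT, and none was called by DESeq2 or limma-voom. The count at an unadjusted p under 0.05 in edgeR was 7, and the share of all genes under it is not given. With DHT, 4 were higher in shTMEFF2, against 3.03% of all genes, namely CDK1 by 0.60, PLK1 by 0.76, AURKB by 0.64 and KIF23 by 0.68. CDK1, the kinase at the centre of the switch, had responses that differed by 0.65 (SE 0.17, edgeR adjusted p = 0.0429), and it was the 1 gene of the 83 called for this difference, a share below the 1.65% of all genes called higher. Its mean level was 174, 229, 167 and 347 CPM in the 4 groups in the order given above. That call held only in the fits without shScramble DHT- replicate 1, shScramble DHT+ replicate 2 or shTMEFF2 DHT- replicate 3 among the 12 that left out a library, with values from 0.56 to 0.80 over all of them. Without shTMEFF2 DHT- replicate 3 the responses of 15 genes of the lists differed, and of 0 to 3 without any other library. The count of 32 was 20 without shTMEFF2 DHT+ replicate 3 and 21 without shTMEFF2 DHT- replicate 2, and the count of 4 between the lines was 0 without shScramble DHT+ replicate 1, 1 without shTMEFF2 DHT+ replicate 3, 11 without shScramble DHT+ replicate 2 and 13 without shTMEFF2 DHT+ replicate 1. CLSPN belongs to a signature that the study selected on these libraries, and the CDK1 difference was among the results known when the lists were chosen, so neither is independent evidence.

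The calls were unevenly spread over the lists. In the CDK1-cyclin B engine and its activators, 10 of 11 genes rose with DHT in shTMEFF2, where 3.28% of all genes did, and none passed both limits in shScramble, where 5.45% did (medians 0.78 and 0.20). In shScramble CKS1B stood at 0.53 (edgeR adjusted p = 0.00390) and CDK1 at 0.40 (edgeR adjusted p = 0.0259), past the limit on p and short of that on size. The genes that rose in shTMEFF2 included CDK1 by 1.05, PLK1, the kinase that marks WEE1 for degradation and activates CDC25C, by 0.73, and CKS2, a CDK subunit, by 0.64. In the late cell cycle targets of FOXM1 and MYBL2, 10 of 12 rose in shTMEFF2 and none passed either limit in shScramble (medians 0.85 and 0.19), with TOP2A at 0.93, KIF23 at 0.95 and PRC1 at 0.75. Of the 9 APC/C substrates and spindle checkpoint genes, 6 rose in shTMEFF2 and 1, TTK, in shScramble (medians 0.68 and 0.26). ESPL1 (separase) rose by 1.06 and SKP2 by 0.68, and PTTG1 (securin) stood at 0.52 (SE 0.16, edgeR adjusted p = 0.0472), under the fold limit.

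The remaining lists held fewer calls. With DHT, 5.45% of all genes were called higher in shScramble and 3.28% in shTMEFF2. The shares called lower were 6.45% and 1.60%. Of the 17 APC/C subunits and partners none was called in either line, which is near those shares for a list of this size. Their medians were 0.10 in shScramble and 0.11 in shTMEFF2. ANAPC13 stood at 0.35 and 0.10, ANAPC11 at 0.13 and -0.04, and UBE2S, which extends ubiquitin chains, at 0.10 and 0.33. In the Greatwall and PP2A-B55 branch of 8 genes, MASTL (Greatwall) rose by 0.67 in shTMEFF2, and PPP2R2A, a B55 subunit of the phosphatase that opposes CDK1, fell in shScramble as given above. In shScramble MASTL stood at 0.42 (edgeR adjusted p = 0.0216), past the limit on p and under the fold limit. PPP2R2A stood at -0.35 (SE 0.11, edgeR adjusted p = 0.0591) in shTMEFF2, and the difference in its response was 0.47 (SE 0.16, edgeR adjusted p = 0.123). ENSA, the Greatwall substrate that inhibits PP2A-B55, stood at -0.51 in shScramble, under the fold limit, and at -0.17 in shTMEFF2. Among the 14 checkpoint kinases and ligases acting on CDC25 and WEE1, CHEK1, CHEK2 (0.85) and CLSPN (1.15) rose in shTMEFF2 and CLSPN in shScramble (0.80). In shScramble CHEK1, at 0.583 (edgeR adjusted p = 0.00424), missed the fold limit narrowly, and CHEK2 stood at 0.50 (edgeR adjusted p = 0.00902). In the same list YWHAZ stood at 0.27 and 0.02 and FBXW11 at 0.30 and 0.11 in shScramble and shTMEFF2. Of the 12 MuvB and DREAM partners, LIN9 (0.70) and MYBL1 rose in shTMEFF2 and LIN52 (0.72) in shScramble. In shTMEFF2 LIN52 stood at 0.55 (edgeR adjusted p = 0.0241), past the limit on p and under the fold limit. LIN54 stood at 0.09 in shScramble and 0.26 in shTMEFF2 and TFDP1 at 0.02 and 0.16.

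**Figure D4:**
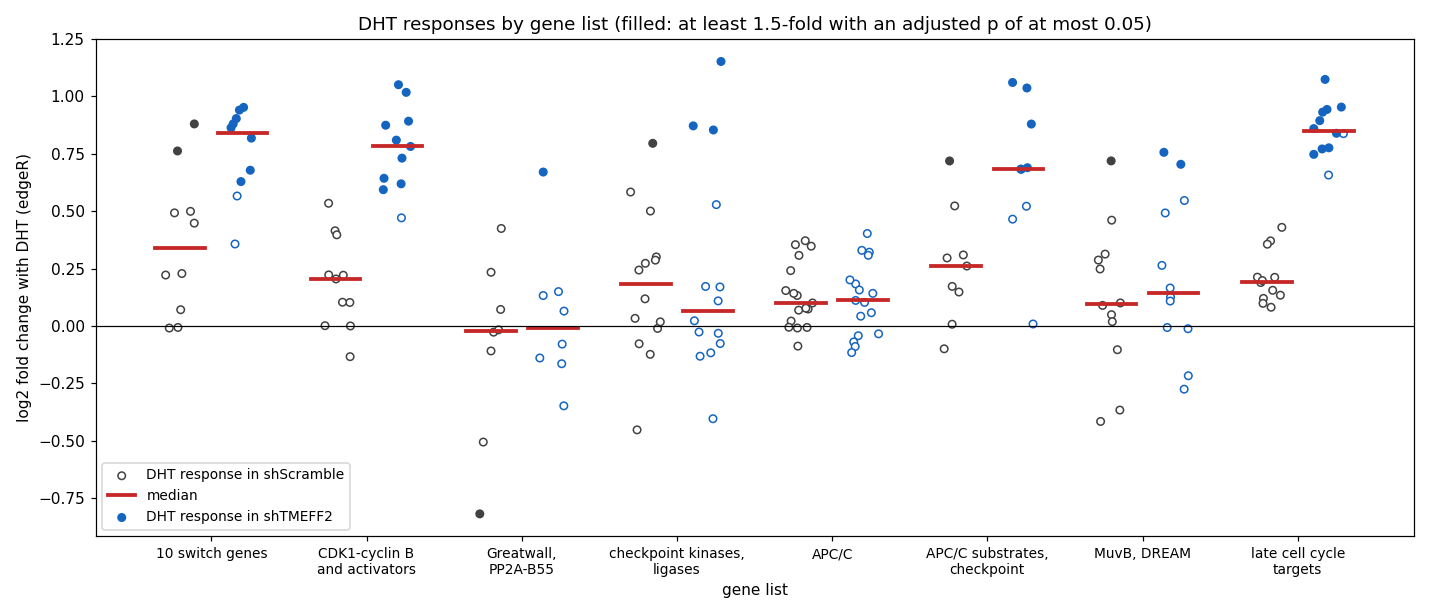
Log2 fold change with DHT (vertical axis) for each gene of the switch and of the 7 lists, in shScramble (grey) and shTMEFF2 (blue), with the list median as a red line and filled points for genes past both limits. The medians of the 10 switch genes were 0.34 and 0.84, and those of the APC/C subunits were 0.10 and 0.11.

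For each of the 10 genes, the genes most like it over the 12 libraries were taken from the 11146 symbols with a mean of at least 5 CPM, by the Pearson correlation of log2 CPM. CDC25A was most like H2AFZ (0.97) and CHCHD4 (0.97), and PKMYT1 most like PAXIP1 (0.98) and RMI2 (0.97). CDC20 was most like CCNB1 (0.97) and CDCA3 (0.97), UBE2C like DLGAP5 (0.99) and DEPDC1B (0.99), FOXM1 like KIF2C (0.99) and PLK1 (0.97), and CDC25B like PLK1 (0.94) and KPNA2 (0.93). MYBL2 was most like MCM2 (0.99) and TIMELESS (0.99), FBXO5 like KNTC1 (0.99) and EXOSC8 (0.99), and CDC25C like NEIL3 (0.98) and ZWINT (0.97). WEE1 was most like SLC38A1 (0.94) and ANKRD29 (0.92). These are the highest of 11146 values for each gene over 12 libraries in 4 groups, and depth scaling and group are shared by all points.

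Each gene's place in the genome (GENCODE, GRCh38) bears on how its reads could be assigned. CDC25A lies at chr3:48157146-48188417 on the minus strand, CDC25B at chr20:3786772-3806121 on the plus strand and CDC25C at chr5:138285269-138338355 on the minus strand. WEE1 lies at chr11:9573670-9593457 on the plus strand and PKMYT1 at chr16:2968024-2980479 on the minus strand. CDC20 lies at chr1:43358981-43363203, UBE2C at chr20:45812576-45816957 and MYBL2 at chr20:43667019-43716495, all on the plus strand, while FBXO5 lies at chr6:152970519-152983579 and FOXM1 at chr12:2857680-2877174 on the minus strand. All 10 are protein-coding genes measured over all their transcripts. Genes or pseudogenes on the opposite strand overlap CDC25A (SNRPFP4, RNU7-128P and NDUFB1P1), FBXO5 (a gene with no symbol), CDC25C (FAM53C), PKMYT1 (KREMEN2 and PAQR4) and FOXM1 (ITFG2 and RHNO1), and the deposited values do not show whether strand was used in the counting, so these counts may include reads of the partner. A gene with no symbol overlaps WEE1 on the same strand. CDC20 has 1 processed copy, CDC20P1.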

How the data were processed

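RNA-seq of 12 LNCaP libraries (4 groups of 3) was analysed from a table of estimated counts deposited by the authors. According to the methods and the submitters' processing notes, reads were checked with FastQC, trimmed with Trimmomatic to at least 15 bp and quantified with kallisto 0.42.3 with its bias correction, using transcripts of GRCh38, and the estimated counts were scaled from transcript abundance and length per gene. Such counts depend on the transcript models, and reads of near-identical copies can be split. The 2 columns of each library were summed and rounded.

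From there, genes were filtered with filterByExpr (minimum count 10, minimum total 15), scaled by TMM and tested with edgeR 4.0.16 (R 4.3.3) in one quasi-likelihood fit of all 12 libraries, with Benjamini-Hochberg adjustment over 15419 genes. A change was called at 1.5-fold or more and an adjusted p of at most 0.05, and a difference of responses at an adjusted p of at most 0.05. DESeq2 1.42.0, limma 3.58.1, other scalings and filters and the leaving out of each library were alternatives. Intervals are 95% and cover the spread among libraries.

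The 10 genes and the 7 lists were chosen with earlier results of these data known. All 10 are described. Of each list the text names the 3 genes ranked first by p for the difference of responses and genes behind counts of calls of 5 or fewer, the latter chosen after their values were seen. Replicate numbers were not used as pairs in the main fit, and whether they pair the samples was not settled. The correlation of deviations between same-numbered libraries ran from -0.00 to 0.17 and exceeded 0.1 in 3 of 12 pairs. It ran from -0.14 to 0.07 for other numbers. In 10 of 12 matches of a library with the libraries of another group, that of the same number was the most alike. Some libraries entered several matches.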

Additional observations from a re-analysis of the deposited data

Results flagged for a closer look

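The difference between the lines in the DHT response of CDK1 was 0.654 on the log2 scale (SE 0.17, edgeR adjusted p = 0.0429), with 0.40 in shScramble and 1.05 in shTMEFF2. It was listed because the test of the difference itself passed, which it did for none of the 10 switch genes, and it was lost in 9 of the 12 fits that left out a library. The CDK1 difference was among the results known when the lists were chosen, so it is not independent evidence. Groups of 3 are too small for the check of single outlying libraries.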

How the results depend on the processing

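Fits without one library gave 2 to 2 of the 10 genes called with DHT in shScramble and 3 to 6 of the 83 list genes, 5 to 9 and 20 to 38 with DHT in shTMEFF2, 0 to 6 and 0 to 13 between the lines with DHT, and 0 to 1 and 0 to 15 for the difference of responses. Without DHT no gene of either set was called in any fit. Between the lines with DHT (1 of 10 called), 3 were called by DESeq2, with DESeq2 size factors in edgeR, with a mean above 5 CPM, with no filter and with the libraries of the comparison only, 4 with library size alone, and 2 with limma-voom, with the first column of each library (MYBL2 not among them) and with replicates 2 and 3 only. Replicates 2 and 3 only, a choice made after seeing the data, left 1 of 10 with DHT in shScramble and 1 of 83 between the lines with DHT. For the difference of responses, 1 of 10 was called by DESeq2 and with no filter. Of the 83 list genes 8 were then called by DESeq2, 3 with library size alone, 3 with a mean above 5 CPM, 7 with no filter, 0 with the first and 4 with the second column of each library, and 0 with replicates 2 and 3 only. The cause of these shifts was not tested.

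Over all tested genes, 88 calls between the lines without DHT became 180 with DESeq2, 157 with no filter, 144 with the block, 46 with the libraries of the comparison only, 46 with the first and 50 with the second column and 33 with replicates 2 and 3 only. With DHT 1044 became 578 with replicates 2 and 3 only, and 761 differences of response became 1205 with DESeq2, 494 with the second column and 160 with replicates 2 and 3 only.

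Replicate numbers were not used as pairs in the main fit. In 10 of 12 matches of a library with another group the library of the same number was the most alike, a hint of pairing from the data only. With the number as a replicate block, 2 of the 10 genes were called between the lines with DHT, and 3 (CDC25B, UBE2C and FOXM1) of the 10 and 9 of the 83 for the difference of responses. The block moved no other count of the 10 or the 83 genes by over 1.5 times.

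Of the values of single genes, 29 turned direction under an alternative, all of them for differences of at most 0.17 on the log2 scale and none for a called one. With DHT in shScramble, the CDC25B value ran from -0.123 to 0.121 over the libraries left out and was 0.0420 with the second column and 0.0372 with replicates 2 and 3, FOXM1 ran from -0.0826 to 0.103 and was 0.0303 and 0.0252 in those settings, and CDC20 ran from -0.0326 to 0.229. Between the lines without DHT, CDC25A ran from -0.0436 to 0.176 and was -0.0685 with the second column and -0.000502 with replicates 2 and 3, CDC25B ran from -0.284 to 0.0144 and was 0.0118 with the second column, CDC25C ran from -0.186 to 0.136 and was 0.0772 with the first column, PKMYT1 ran from -0.0410 to 0.292, UBE2C was 0.0270 with the second column, FBXO5 ran from -0.145 to 0.0792, and FOXM1 ran from -0.198 to 0.0372 and was 0.0364 with the second column. The CDC25A difference of responses ran from -0.0268 to 0.192 and was -0.0837 with the first column. With 3 libraries a group the 95% intervals of the 10 genes for the difference of responses were 0.546 to 1.18 wide on the log2 scale.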
